A study of Mus musculus with 6 samples.

Results

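The genes of the mitochondrial genome were followed in RNA sequencing of mouse macrophages, as the 37 genes whose deposited chromosome was MT among 54532 genes listed. By their annotated biotype these were 13 mRNA genes (protein_coding), 2 rRNA genes (Mt_rRNA) and 22 tRNA genes (Mt_tRNA). All 37 were kept and none was chosen by its values. The cells were bone-marrow-derived macrophages, phagocytes grown in culture from marrow precursors, of the mouse strain C57BL/6. They had been transfected with small interfering RNA against Cxcr4 (siCXCR4), the gene of the chemokine receptor CXCR4, or with a negative-control siRNA (siNC). Both groups, controls included, had then been treated with LPS, a lipopolysaccharide of the bacterial outer membrane to which macrophages respond, at 100 ng/ml for 12 hours. An siRNA lowers a transcript for a time and deletes nothing. The groups are named here by the sample titles. The deposited value columns, however, were headed wt1lps and wt2lps in siNC and mko1lps, mko2lps and mko3lps in siCXCR4. No source used here explains these headers. No source used here gives the age or number of the mice, or the animal or culture behind each replicate. P-values therefore measure the spread between these samples only, and that spread may be technical. The table labelled siNC replicate 3 held raw counts, and these equalled the reads of siNC replicate 2 in 19072 of 19072 genes with reads. As they did not differ, which is less than sampling noise would give, these 2 tables were counted as 1 sample, which left 5 libraries, 2 siNC and 3 siCXCR4.

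Library totals were 21443370 and 19292520 reads in genes in siNC and 21780840, 19323985 and 18890751 in siCXCR4. Values of single libraries are given in that order throughout, siNC replicates 1 and 2 and then siCXCR4 replicates 1, 2 and 3. Levels are FPKM, that is reads or fragments divided by gene length and by a denominator per library. Read counts are the whole reads worked back from FPKM. That denominator was 22062113 and 19715902 in siNC and 21780912, 19384483 and 19153055 in siCXCR4, above the reads in genes. Its excess, as a share, was larger in both siNC libraries than in any siCXCR4 library, so FPKM differences between groups depend on it. The targeted gene, Cxcr4, was at 41.3 and 42.1 FPKM in siNC and at 31.1, 36.2 and 32.7 FPKM in siCXCR4. Cxcr4 was thus lower in 3 of 3 siCXCR4 libraries (log2 fold change -0.32, SE 0.0704), with an adjusted p of 0.457 by limma, 0.0637 by edgeR and 0.0496 by DESeq2. The 8 macrophage markers examined (among them Adgre1, Csf1r, Cd68 and Lyz2) all passed the filter on low levels and summed to 4287 to 4525 FPKM in siNC and to 4149 to 4513 FPKM in siCXCR4. Of the markers of other cell types, those of neutrophils and their precursors had the highest sum, 34.4 to 35.4 FPKM in siNC and 32.5 to 39.7 FPKM in siCXCR4. The T-cell list summed to at most 0.124 FPKM in any library, and Siglech, a defining marker of plasmacytoid dendritic cells, was listed at 0 in all 5.

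Mitochondrial DNA is a small circle that is transcribed from both of its strands into long RNAs spanning many genes. In the annotation, the plus strand carries both rRNA genes, 12 mRNA genes and 14 tRNA genes, and the minus strand carries mt-Nd6 and 8 tRNA genes. The tRNAs sit between most of the other genes, and cutting them out at both ends releases the rRNAs and mRNAs, a scheme known as tRNA punctuation. Genes of the same strand therefore start from common precursor RNAs, and differences in their levels arise from termination, processing and stability as well as from synthesis. The mRNAs encode membrane subunits of respiratory complexes I, III and IV and of the ATP synthase, while the remaining subunits and the machinery that copies, transcribes and translates mitochondrial DNA are encoded in the nucleus.

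A stretch of this genome is copied almost perfectly into nuclear chromosome 1, and the copies are shown because the genes inside the stretch had by far the lowest read counts among the mRNAs. The 7 genes concerned, all annotated as unprocessed pseudogenes on the minus strand of chromosome 1 between positions 24611535 and 24616197 of GRCm38, aligned to mitochondrial mRNA genes in the same order. Gm29216 matched the last 483 bases of mt-Co1, Gm28661 matched mt-Co2, Gm10925 mt-Atp6, Gm28437 mt-Co3, Gm28438 mt-Nd3 and Gm10222 mt-Nd4l nearly from end to end, and Gm28439 matched the first 876 bases of mt-Nd4. Over 4140 aligned bases there were 2 mismatches and no gap, and 5 of the 7 copies were identical to the mitochondrial sequence. The first 100 aligned bases of 3 pairs are printed below from the GENCODE transcripts, in lower case with capitals for a base that differs between gene and copy. The windows are chrMT:6390-6489 (plus strand) with chr1:24616089-24616188 (minus strand), chrMT:7013-7112 (plus) with chr1:24615466-24615565 (minus), and chrMT:9459-9558 (plus) with chr1:24613020-24613119 (minus).
mt-Co1: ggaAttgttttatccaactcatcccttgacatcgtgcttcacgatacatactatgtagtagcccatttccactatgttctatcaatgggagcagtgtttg
Gm29216: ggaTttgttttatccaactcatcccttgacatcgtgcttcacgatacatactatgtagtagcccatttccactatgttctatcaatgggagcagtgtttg
mt-Co2: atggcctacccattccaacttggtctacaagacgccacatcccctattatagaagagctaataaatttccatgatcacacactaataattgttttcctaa
Gm28661: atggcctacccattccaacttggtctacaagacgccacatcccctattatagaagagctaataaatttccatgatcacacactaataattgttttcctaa
mt-Nd3: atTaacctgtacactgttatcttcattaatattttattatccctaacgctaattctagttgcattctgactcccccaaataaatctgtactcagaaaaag
Gm28438: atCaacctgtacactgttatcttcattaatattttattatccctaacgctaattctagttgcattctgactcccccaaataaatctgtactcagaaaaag

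The mt-Co2 window has no capital because gene and copy are identical there. The windows of mt-Co1 and mt-Nd3 each hold the only difference found along the aligned part of their copy, which in Gm29216 starts at base 10. A read from mt-Co2, mt-Atp6, mt-Co3, mt-Nd3 or mt-Nd4l therefore fits 2 places in the nuclear and mitochondrial sequence almost everywhere along the gene. Counted in windows of 50 bases, 100% of mt-Co2, 99.9% of mt-Co3, 99.5% of mt-Atp6, 98.8% of mt-Nd4l and 98.0% of mt-Nd3 also occurred in annotated transcripts outside the mitochondrial genome. The share was 62.2% for mt-Nd4, 51.1% for mt-Co1, 8.19% for mt-Nd2, 7.61% for mt-Nd5 and 1.04% for mt-Rnr2. It was 0% for mt-Rnr1, mt-Nd1, mt-Nd6, mt-Cytb and mt-Atp8. The counterpart of mt-Atp8 on chromosome 1 would lie between Gm28661 and Gm10925, where no annotated transcript was found, and the genomic sequence there was not analysed here.

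Of the tRNA genes, 3 are shown, with the anticodon in capitals. The gene of the proline tRNA, mt-Tp (chrMT:15356-15422, minus strand), had most of the tRNA reads. Its neighbour on the opposite strand, the threonine tRNA gene mt-Tt (chrMT:15289-15355, plus strand), had nearly none. The histidine tRNA gene mt-Th (chrMT:11546-11612, plus strand) had the smallest adjusted p of the mitochondrial genes by limma, though not by edgeR or DESeq2, where it was mt-Rnr2.
mt-Tp: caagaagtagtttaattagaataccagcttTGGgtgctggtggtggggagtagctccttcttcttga
mt-Tt: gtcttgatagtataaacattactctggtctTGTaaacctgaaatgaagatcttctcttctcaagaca
mt-Th: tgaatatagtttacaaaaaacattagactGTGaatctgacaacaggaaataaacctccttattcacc

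Levels of the mRNA genes formed a well-covered and a nearly empty set that followed the position on the genome, while tRNA genes with few or no reads lay both inside and outside the copied stretch. Inside the stretch copied to chromosome 1 lay 11 genes, 6 mRNA genes and 5 tRNA genes, which together had 383 to 519 reads per library, or 0.228% to 0.265% of the mitochondrial reads. The 6 mRNA genes inside it had mean levels of 0.330 to 11.8 FPKM and 0 to 187 reads per library. The 7 other mRNA genes had mean levels of 291 to 3189.6 FPKM and 3151 to 113136 reads per library, so the ranges did not meet in any library. The copies themselves had between 2 and 123 reads per library. Gm10925, identical to the mt-Atp6 stretch it matches, had 111 and 112 reads in siNC and 123, 86 and 84 in siCXCR4, close to the 108 and 83, and 93, 83 and 76, of mt-Atp6. The other copies of nearly whole genes had fewer reads than their genes. Gm28661 had 72 to 100 against 131 to 187 of mt-Co2, and Gm28437 had 49 to 59 against 67 to 106 of mt-Co3. Gm10222 had 9 to 18 against 26 to 40 of mt-Nd4l, and Gm28438 had 2 to 8 against 63 to 88 of mt-Nd3. No source used here says how the authors' counting assigned reads that fit both places, so the levels of these 6 mRNA genes are uncertain and cannot be set against those of their neighbours. The same limit holds in part for mt-Nd4 and mt-Co1, with 62.2% and 51.1% of windows shared. It bears on their place among other genes and on their ratios to neighbours below. The part of the copies in the low counts was not tested, and mt-Atp8, with no annotated copy, was the lowest of all mRNA genes at 3 and 0 reads in siNC and 1, 3 and 0 in siCXCR4.

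**Figure D1:**
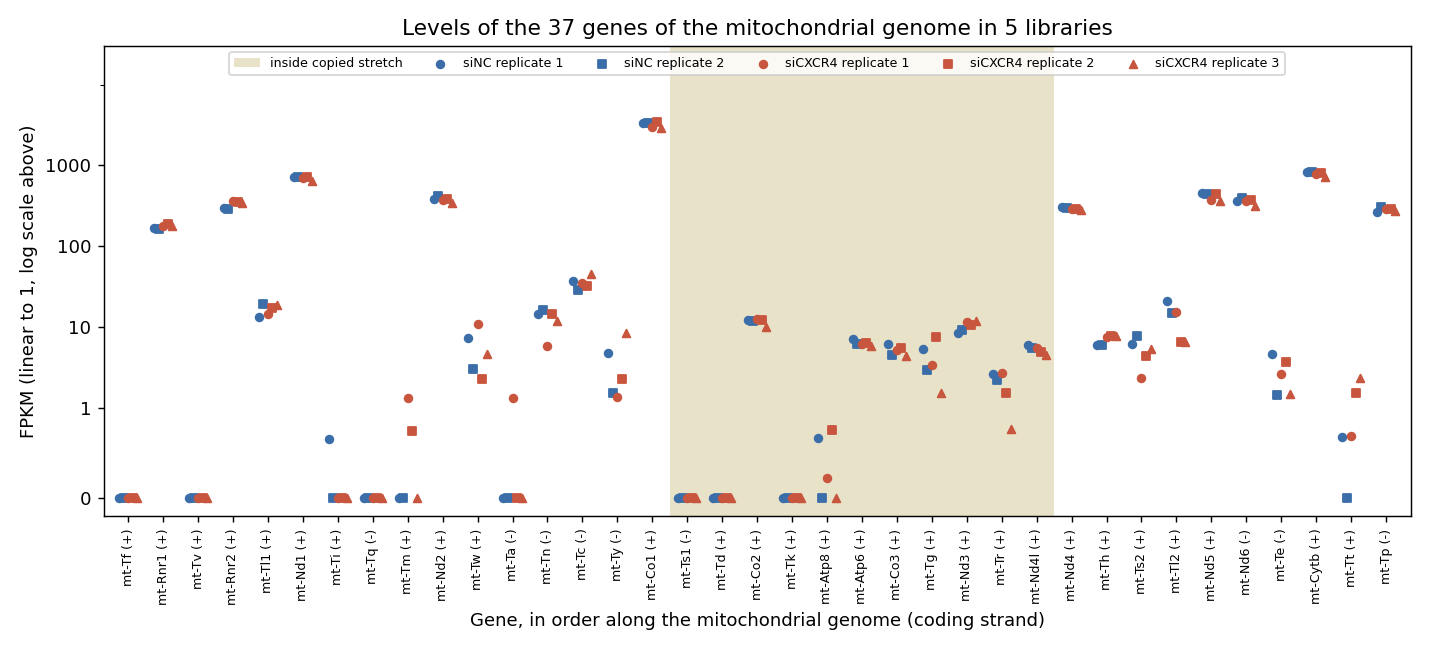
Level of each of the 37 genes of the mitochondrial genome (FPKM, linear up to 1 and logarithmic above, 1 point per library, blue siNC and red siCXCR4) in genome order, with the coding strand in brackets and the 11 genes inside the stretch copied to chromosome 1 shaded. The 6 shaded mRNA genes have means of at most 11.8 FPKM, the 7 other mRNA genes have means of at least 291 FPKM, and the libraries of both groups lie close together in each well-covered gene.

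**Figure D2:**
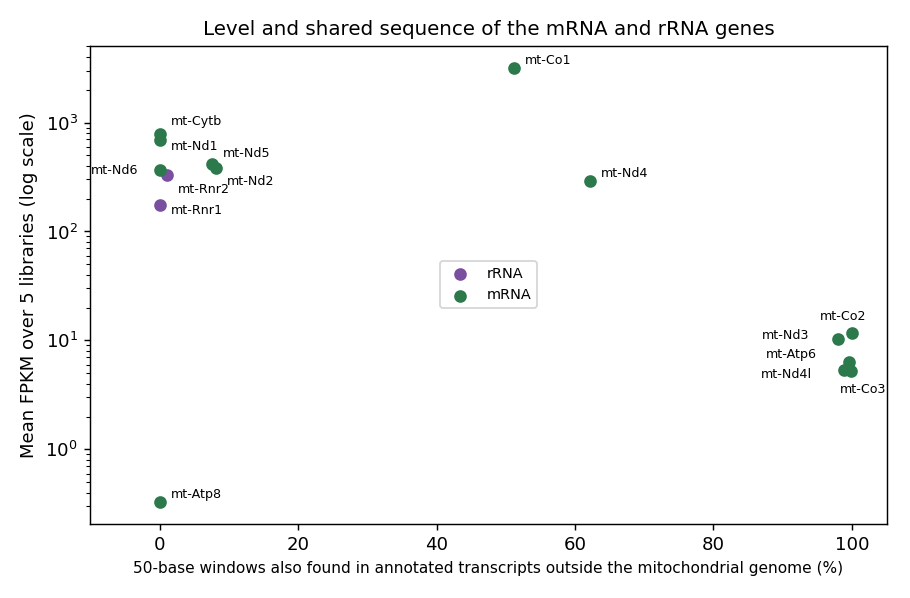
Mean level over 5 libraries (FPKM, log scale) of the 13 mRNA and 2 rRNA genes against the percentage of their 50-base windows that also occur in annotated transcripts outside the mitochondrial genome. The 5 genes at 98.0% or more lie between 5.19 and 11.8 FPKM, while mt-Atp8 is low at 0% and mt-Co1 and mt-Nd4 are high at 51.1% and 62.2%.

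Among the well-covered genes, mt-Co1 stood alone at the top. It encodes the core subunit of cytochrome c oxidase (complex IV), where oxygen is reduced, and it was at 3319 and 3333 FPKM in siNC and at 3020.3, 3394 and 2881 FPKM in siCXCR4. Its level was 7.92 and 7.77 times the median of the 6 other well-covered mRNAs in siNC and 8.09, 8.18 and 8.16 times in siCXCR4. It took 53.7% to 55.5% of all mitochondrial reads. After it, in order of mean level, came mt-Cytb (791 FPKM), mt-Nd1 (698), mt-Nd5 (416), mt-Nd2 (380.1), mt-Nd6 (363), mt-Rnr2 (329.7), mt-Nd4 (291), mt-Tp (284) and mt-Rnr1 (175). The ranges over the 5 libraries of mt-Co1 and mt-Cytb did not overlap, nor did those of mt-Nd1 and mt-Nd5 or of mt-Tp and mt-Rnr1. All other neighbours in this order had overlapping ranges. The order of mt-Nd6 over mt-Rnr2 and of mt-Rnr2 over mt-Nd4 each held in 3 of 5 libraries. The levels of mt-Nd4 and mt-Co1 carry the uncertainty of their shared windows given above. The labels give total RNA as the molecule, and no source used here says how RNA was selected for the libraries.

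Mitochondrial genes took 0.954% and 0.949% of reads in genes in siNC and 0.868%, 0.949% and 0.831% in siCXCR4. Over this base, siCXCR4 replicates 1 and 3 were below both siNC libraries and replicate 2 lay between them. The FPKM denominator was larger, most so in siNC, so this placement depends on the base. The 95% Wilson intervals, which cover counting error only, were 0.827% to 0.835% for the lowest library and 0.950% to 0.958% for the highest, so these libraries differed by more than counting error although the groups overlapped. Relative to reads of all other genes the mitochondrial reads had a log2 difference between groups (siCXCR4 minus siNC, as throughout) of -0.11, with an exact two-sided permutation p of 0.3 (0.8 after Benjamini-Hochberg adjustment over 8 such measures). With 2 against 3 libraries this test cannot go below 0.1. In bulk RNA, fewer mitochondria per cell and less RNA per mitochondrion cannot be told apart, nor can fewer cells of a type and less RNA per cell.

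The classes of RNA within the genome differed in direction. Reads of the 13 mRNA genes were 0.886% and 0.884% of reads in genes in siNC and 0.791%, 0.872% and 0.756% in siCXCR4. They were lower in 3 of 3 siCXCR4 libraries over this base, but the separation depends on it. By FPKM, whose denominator is larger, mt-Co1, with most of these reads, was at 3394 in siCXCR4 replicate 2, above 3319 and 3333 in siNC. Reads of the 2 rRNA genes were 6.85% and 6.54% of mitochondrial reads in siNC and 8.62%, 7.84% and 8.64% in siCXCR4, higher in 3 of 3. For every 100 mRNA reads there were 7.38 and 7.02 rRNA reads in siNC and 9.47, 8.54 and 9.50 in siCXCR4. The ratio of rRNA to mRNA reads was thus 1.27 times as high in siCXCR4 (log2 difference 0.35) with no overlap between groups, and its exact two-sided permutation p of 0.1, the smallest this design allows, came to 0.8 after adjustment over 8 measures. This ratio contains only mitochondrial reads, so it does not depend on library size or on the FPKM denominator. Its log2 difference was 0.35 without mt-Co1, 0.33 from summed FPKM, 0.38 with mt-Rnr2 as the only rRNA and 0.24 with mt-Rnr1 as the only one, and from 0.31 to 0.40 with any 1 library left out.

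**Figure D3:**
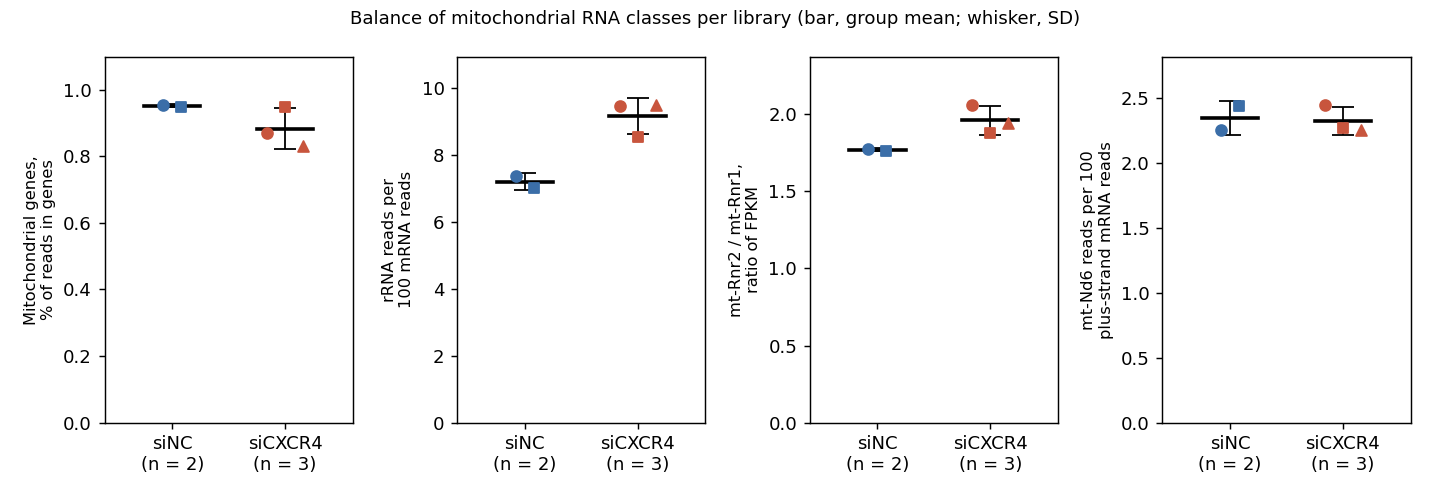
Mitochondrial genes as a percentage of reads in genes, rRNA reads per 100 mRNA reads, ratio of mt-Rnr2 to mt-Rnr1 level (FPKM) and mt-Nd6 reads per 100 plus-strand mRNA reads, with 1 point per library, the group mean as a line and the SD as whiskers (siNC n = 2, siCXCR4 n = 3). The groups do not overlap in the second and the third panel, where siCXCR4 is higher, and they overlap in the first and the last.

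Both rRNA genes had higher levels in siCXCR4. mt-Rnr1 (ENSMUSG00000064337, positions 70 to 1024) encodes the 12S rRNA of the small mitochondrial ribosomal subunit and was at 169 and 162 FPKM in siNC and at 178, 189 and 176 FPKM in siCXCR4. mt-Rnr2 (ENSMUSG00000064339, positions 1094 to 2675) encodes the 16S rRNA of the large subunit and was at 299.8 and 286 FPKM in siNC and at 366, 355 and 342 FPKM in siCXCR4. In both genes all 3 siCXCR4 libraries were above both siNC libraries. The log2 fold change was 0.13 (SE 0.0558, 95% interval -0.01 to 0.26) for mt-Rnr1 and 0.27 (SE 0.0563, 95% interval 0.14 to 0.41) for mt-Rnr2, on the log2(FPKM + 1) scale. Neither passed the threshold over all 9943 genes tested, with adjusted p of 0.539 and 0.438 by limma. For mt-Rnr2, edgeR gave an adjusted p of 0.107 and DESeq2 gave 0.0220, the only call among genes of the mitochondrial genome by that tool. edgeR without siCXCR4 replicate 2, an alternative added after the data were seen, also called mt-Rnr2 (adjusted p 0.0210). Across the alternatives its log2 fold change ranged from 0.23 to 0.31 and its adjusted p from 0.0210 to 0.858.

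The 2 rRNA genes are adjacent on the same precursor, separated by the valine tRNA gene mt-Tv, and their ratio differed between groups as well. The FPKM ratio of mt-Rnr2 to mt-Rnr1 was 1.78 and 1.76 in siNC and 2.06, 1.88 and 1.94 in siCXCR4, without overlap. The log2 difference was 0.15, with an exact two-sided permutation p of 0.2 (0.8 adjusted over 8 measures), in a design whose smallest p is 0.1. mt-Rnr2 shares 1.04% of its 50-base windows with Gm20594 outside the mitochondrial genome and mt-Rnr1 shares none.

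Other RNA classes differed between the same libraries. Malat1, a long RNA kept in the nucleus, was at 80.7 and 86.0 FPKM in siNC and at 58.8, 58.5 and 65.6 FPKM in siCXCR4. The 4 nuclear-retained RNAs examined (Malat1, Neat1, Kcnq1ot1 and Meg3) summed to between 89.7 and 95.4 FPKM in siNC and between 66.0 and 74.2 FPKM in siCXCR4. Malat1 made up most of each sum, so the sum says little about the others. Of the 4, limma tested 2 and called 0 (0.0% of all genes tested), edgeR tested 3 and called 1 (0.133%), and DESeq2 called 1 (0.266%). Of 24 biotypes with at least 1 RPM (reads scaled to reads in genes, not to the FPKM denominator), 2 were higher in siCXCR4 without overlap, Mt_rRNA and protein_coding. Another 11 were lower, among them lincRNA, snRNA, snoRNA, the nuclear rRNA biotype and Mt_tRNA. These counts hold for reads in genes and may differ over the FPKM denominator. The part of the FPKM denominator not made up by reads in listed genes was 2.80% and 2.15% in siNC and 0.00033%, 0.312% and 1.37% in siCXCR4. No source used here says what this denominator counts, so the part need not be sequenced reads outside genes. The 4 dendritic-cell markers, with Siglech at 0, summed to between 0.242 and 0.310 FPKM in siNC and between 0.405 and 0.461 FPKM in siCXCR4. None of these 4 passed the filter on low levels, and the sums of all other marker lists overlapped between groups. These quantities moved with the groups alongside the mitochondrial rRNAs, and their part in the result was not tested.

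The mRNAs of complex I, which takes electrons from NADH, are 7 of the 13. mt-Nd1 was at 718 and 716 FPKM in siNC and at 702, 721 and 633 FPKM in siCXCR4, and mt-Nd2 was at 387 and 414 against 370.1, 384 and 345 FPKM. mt-Nd4 was at 304 and 295 FPKM in siNC and at 287, 291 and 277 FPKM in siCXCR4. The siCXCR4 values were all below the siNC values for mt-Nd2 and mt-Nd4 and overlapped them for mt-Nd1. mt-Nd5 was at 451 and 443 FPKM in siNC and at 377, 446 and 361 FPKM in siCXCR4, where siCXCR4 replicate 2 matched the siNC level. Its log2 fold change of -0.19 (SE 0.0935) was the lowest of the well-covered mRNAs, with an adjusted p of 0.581 by limma. Without siCXCR4 replicate 2, edgeR called mt-Nd5 at a log2 fold change of -0.29 (adjusted p 0.00583), so that library decided the call. The same edgeR test called 312 of 12750 genes without that library and 17 of 12794 with it.

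The rest of complex I lies inside the copied stretch or on the other strand. mt-Nd3, whose window with its copy is printed above, was at 8.47 and 9.18 FPKM in siNC and at 11.6, 10.7 and 12.0 FPKM in siCXCR4, and was the 1 mRNA with a log2 fold change above 0 (0.34, SE 0.0673, adjusted p 0.438 by limma). It rested on 65 and 63 reads in siNC and 88, 72 and 80 in siCXCR4. Exact Poisson intervals for its counting error ran from 48.4 to 80.6 around 63 reads and from 70.6 to 108 around 88 reads. By edgeR, which weighs such counts, the adjusted p of mt-Nd3 was 0.565. mt-Nd4l, also inside the stretch, was at 6.10 and 5.46 FPKM in siNC and at 5.57, 4.86 and 4.57 FPKM in siCXCR4, with overlapping groups and 26 to 40 reads.

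The mRNAs of complex III, complex IV and the ATP synthase gave no larger differences. mt-Cytb, the cytochrome b of complex III, was at 823 and 821 FPKM in siNC and at 779, 815 and 717 FPKM in siCXCR4, all 3 below the siNC values (log2 fold change -0.10, SE 0.0680, adjusted p 0.679 by limma). mt-Co1, given above, overlapped between groups (log2 fold change -0.11, SE 0.0805, adjusted p 0.694 by limma). mt-Co2, which receives electrons from cytochrome c, was at 12.3 and 12.0 FPKM against 12.6, 12.2 and 10 FPKM. mt-Co3, the third subunit of complex IV encoded here, was at 6.13 and 4.59 FPKM against 5.15, 5.59 and 4.46 FPKM. Of the ATP synthase genes, mt-Atp6 was at 7.19 and 6.18 FPKM against 6.27, 6.29 and 5.83 FPKM, and mt-Atp8 was at 0.667 and 0 against 0.225, 0.759 and 0 FPKM. The groups overlapped in these 4 genes, each of which had at most 187 reads in a library. The mean log2 level of the 3 complex IV mRNAs relative to 6 complex I mRNAs of the same strand differed by -0.03 between groups (exact two-sided permutation p = 0.7, 0.8 adjusted over 8 measures).

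The shares of single mRNAs within all mitochondrial mRNA reads overlapped between groups in 11 of 13 genes. mt-Co1 made up 59.5% and 59.6% of mRNA reads in siNC and 59.0%, 60.3% and 59.6% in siCXCR4. mt-Nd5 made up 9.56% and 9.351% in siNC and 8.69%, 9.349% and 8.83% in siCXCR4, lower in 3 of 3 although replicate 2 nearly equalled the lower siNC library. mt-Nd3 made up 0.0342% and 0.0370% in siNC and 0.0511%, 0.0427% and 0.0560% in siCXCR4, higher in 3 of 3 on the few reads given above. Along the plus-strand precursor, the levels of 7 pairs of neighbouring well-covered genes were set in ratio. As a family these pairs were not among the 8 measures, though mt-Rnr2 over mt-Rnr1 is in both. The pairs with mt-Rnr2 use the same mt-Rnr2 reads as the rRNA to mRNA ratio and are not independent of it. mt-Nd1 over mt-Rnr2, the border between the rRNA and the mRNA part, was 2.39 and 2.50 in siNC and 1.92, 2.03 and 1.85 in siCXCR4. It was lower in 3 of 3 siCXCR4 libraries, with a log2 difference of -0.34 and an exact two-sided permutation p of 0.1 (0.525 after adjustment over 7 pairs). Downstream of it, the groups overlapped in all 5 pairs of mRNAs. mt-Nd5 over mt-Nd4 was 1.49 and 1.50 in siNC and 1.31, 1.53 and 1.30 in siCXCR4, the widest difference among these pairs (log2 difference -0.12, exact permutation p = 0.4, 0.56 adjusted over 7 pairs). Mean log2 levels of mt-Nd4, mt-Nd5 and mt-Cytb relative to those of mt-Nd1, mt-Nd2 and mt-Co1, which lie nearer the start, differed by -0.02 between groups (exact permutation p = 0.5, 0.8 adjusted over 8 measures).

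**Figure D4:**
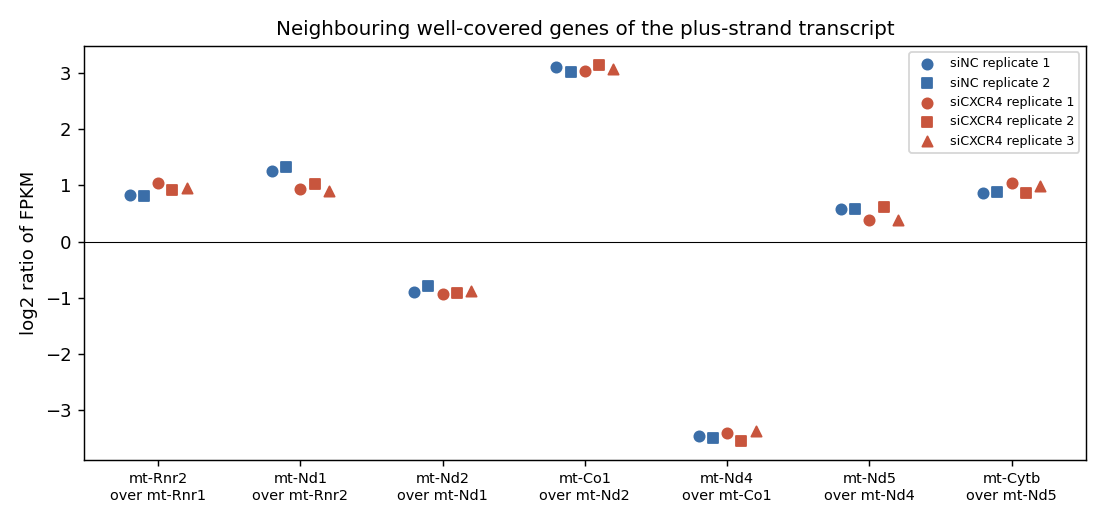
Log2 ratio of the levels (FPKM) of neighbouring well-covered genes of the plus-strand precursor, in genome order from left to right, with 1 point per library. The groups separate at the 2 pairs that contain mt-Rnr2, where siCXCR4 is higher for mt-Rnr2 over mt-Rnr1 and lower for mt-Nd1 over mt-Rnr2, and overlap at the 5 pairs of mRNAs.

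The minus strand had a single mRNA gene, mt-Nd6, a further subunit of complex I. mt-Nd6 was at 366 and 397 FPKM in siNC and at 364, 371 and 317 FPKM in siCXCR4. For every 100 plus-strand mRNA reads there were 2.25 and 2.44 reads of mt-Nd6 in siNC and 2.45, 2.27 and 2.25 in siCXCR4, with overlapping groups. The log2 difference of this ratio was -0.02 (exact two-sided permutation p = 1.0, 1.0 adjusted over 8 measures). All minus-strand genes together took 2.28% and 2.48% of mitochondrial reads in siNC and 2.43%, 2.28% and 2.28% in siCXCR4, and their ratio to plus-strand genes differed by -0.03 on the log2 scale (exact permutation p = 0.6, 0.8 adjusted over 8 measures). No source used here gives the strand setting of the counting. Without strand, reads of the minus-strand genes cannot be told from plus-strand precursor RNA that runs across the same positions, and mt-Nd6 and mt-Nd5 share 14 bases.

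Reads in tRNA genes were few and came mostly from mt-Tp. The 22 genes together had 580 and 549 reads in siNC and 575, 510 and 498 in siCXCR4. mt-Tp had 392 and 407 of them in siNC and 418, 374 and 348 in siCXCR4, or 67.6% to 74.1% of tRNA reads. Its level was 265 and 308 FPKM in siNC and 286, 288 and 271 FPKM in siCXCR4, with the siCXCR4 values inside the siNC range (log2 fold change -0.02, SE 0.0754, adjusted p 0.951 by limma). mt-Tt, which adjoins mt-Tp on the opposite strand, had 1 and 0 reads in siNC and 1, 2 and 3 in siCXCR4, no more than the 3 reads that a count of 0 allows.

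Of the other tRNA genes, 6 had no read in any library (mt-Tf, mt-Tv, mt-Tq, mt-Ts1, mt-Td and mt-Tk), and 3 had a mean above 0 and under 1 read. The remaining 12, mt-Tt included, had means of 1 to 50 reads, led by mt-Tc, the cysteine tRNA gene, with 54 and 37 reads in siNC and 50, 41 and 57 in siCXCR4. mt-Th had 9 and 8 reads in siNC and 11, 10 and 10 in siCXCR4, or 6.09 and 6.06 against 7.54, 7.70 and 7.79 FPKM. Its log2 fold change of 0.29 had the smallest adjusted p of the genome by limma (0.389), while exact Poisson intervals ran from 3.45 to 15.8 around 8 reads and from 5.49 to 19.7 around 11 reads. All 5 counts lay inside both intervals, and by edgeR its adjusted p was 0.887. mt-Tl2, a leucine tRNA gene, had 33 and 21 reads in siNC and 24, 9 and 9 in siCXCR4, with an adjusted p of 0.466 by edgeR and of 0.594 by limma. Per 1000 mRNA reads there were 3.05 and 3.22 tRNA reads in siNC and 3.34, 3.03 and 3.48 in siCXCR4 (log2 difference 0.06, exact two-sided permutation p = 0.5, 0.8 adjusted over 8 measures).

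Over the genome as a whole, 27 of the 37 genes had a mean of at least 1 FPKM and were tested: both rRNA genes, 12 of 13 mRNA genes and 13 of 22 tRNA genes. None was called by limma at an adjusted p under 0.05, against 0.0% of the 9943 genes tested. At an unadjusted p under 0.05, limma gave 3 higher in siCXCR4 (mt-Rnr2, mt-Nd3 and mt-Th) and 0 lower, where 5.80% of all genes tested were higher and 3.54% lower, or 9.34% in either direction. edgeR tested 20 of the genes and called 0, against 0.133% of all genes, and 4 passed an unadjusted p under 0.05 (9.73% of all genes), 1 of them higher (4.46%) and 3 lower (5.27%). DESeq2 called 1, mt-Rnr2, against 0.266% of all genes, and 3 passed an unadjusted p under 0.05 (5.52%), 1 of them higher (2.68%) and 2 lower (2.84%). FPKM did not overlap between groups in 5 genes that were higher in siCXCR4 (mt-Rnr1, mt-Rnr2, mt-Nd3, mt-Th and mt-Tt) and 5 that were lower (mt-Nd2, mt-Nd4, mt-Cytb, mt-Tn and mt-Ts2), where 17.9% of all genes tested were higher and 9.92% lower without overlap, or 27.8% in either direction.

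Of the 12 mRNA genes tested, 11 had a log2 fold change below 0, as had 43.6% of all genes tested. The median over these 12 was -0.10, against 0.01 over all genes. All 7 well-covered mRNA genes were below 0, between -0.19 for mt-Nd5 and -0.07 for mt-Nd1, and the smallest adjusted p among them was 0.581 by limma. Leaving out 1 library kept all 7 below 0 by limma but moved their size. Without siCXCR4 replicate 3 mt-Nd1 was at -0.010, mt-Co1 at -0.055, mt-Nd6 at -0.052 and mt-Cytb at -0.045, and without siCXCR4 replicate 2 mt-Nd1 was at -0.10 and mt-Co1 at -0.17. Without siNC replicate 2 mt-Nd2 was at -0.082 and mt-Nd6 at -0.064. These genes share precursor RNAs and, within a library, the FPKM denominator, so they are not independent measurements. Complex I had 6 of 7 genes below 0, complex IV 3 of 3, complex III its only gene, and the ATP synthase the 1 of 2 that was tested.

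**Figure D5:**
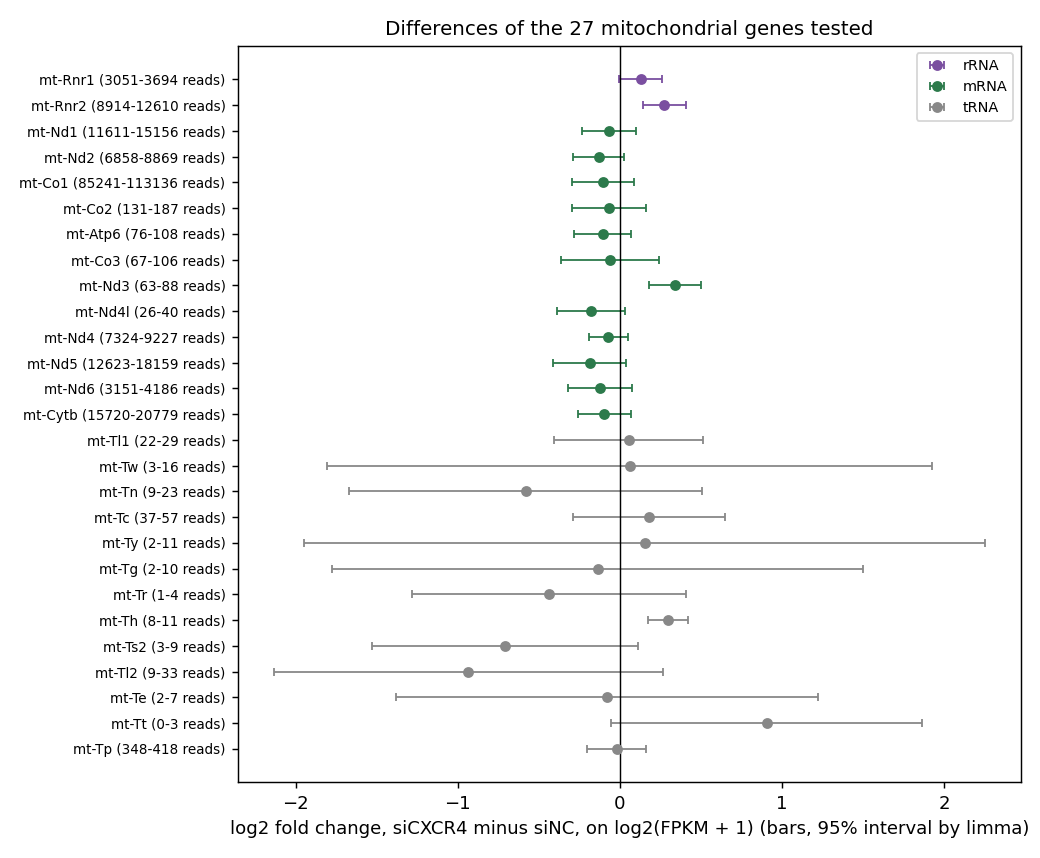
Log2 fold change (siCXCR4 minus siNC, on log2(FPKM + 1)) of the 27 mitochondrial genes tested, with the 95% interval by limma and, in brackets, the lowest and highest read count over 5 libraries. Both rRNA genes lie above 0, the 7 mRNA genes with at least 3151 reads lie between -0.19 and -0.07, and the tRNA genes with few reads have intervals over 1 log2 unit wide except mt-Tl1, mt-Tc, mt-Th and mt-Tp.

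Nuclear genes for mitochondrial gene expression were taken as 4 lists with 78 genes, of which 67 were tested. Of these, 46 had a log2 fold change above 0 and 21 below 0, where 43.6% of all genes tested were below 0. Their median was 0.03 against 0.01 over all genes. None was called by limma, edgeR or DESeq2, against 0.0%, 0.133% and 0.266% of all genes tested. At an unadjusted p under 0.05, limma gave 1 higher (Pnpt1) and 0 lower, against 5.80% and 3.54% of all genes tested, and edgeR 1 higher (Pnpt1) and 1 lower (Tfb1m), against 4.46% and 5.27%. FPKM did not overlap between groups in 10 that were higher and 4 that were lower in siCXCR4, where all genes tested had 17.9% and 9.92%.

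Of 17 genes for transcription and maintenance of mitochondrial DNA, 14 were tested, with 8 above 0 and 6 below. Polrmt, the mitochondrial RNA polymerase, had a mean of 3.81 ± 0.131 FPKM (SD, n = 2) in siNC and of 3.60 ± 0.354 FPKM (SD, n = 3) in siCXCR4, and means of other genes are given likewise. Tfam, which packages mitochondrial DNA and helps start its transcription, was at 6.28 ± 0.239 and 6.45 ± 0.612 FPKM, and both genes overlapped between groups. Tfb1m, a methyltransferase that modifies the 12S rRNA, was at 1.56 ± 0.161 and 1.22 ± 0.177 FPKM, lower without overlap (log2 fold change -0.21, adjusted p 0.561 by limma). Polg2, the accessory subunit of the mitochondrial DNA polymerase, was at 1.66 ± 0.00748 and 1.90 ± 0.0745 FPKM, and Lonp1, a protease of the matrix, at 13.1 ± 0.625 and 13.9 ± 0.251 FPKM. Both were higher in 3 of 3 siCXCR4 libraries, with adjusted p of 0.615 and 0.651 by limma. Mterf4, Mgme1 and Tfb2m overlapped between groups, at 1.54 ± 0.0836 and 1.35 ± 0.159, 3.36 ± 0.267 and 3.69 ± 0.399, and 3.15 ± 0.365 and 3.45 ± 0.453 FPKM.

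Of 37 genes for processing, stability and modification of mitochondrial RNA, 32 were tested, with 23 above 0 and 9 below. Pnpt1, the polynucleotide phosphorylase of mitochondria, was at 19.5 and 20.7 FPKM in siNC and at 23.6, 21.3 and 22.4 FPKM in siCXCR4, without overlap (log2 fold change 0.15, SE 0.0604, adjusted p 0.526 by limma). For the complex that cuts mitochondrial tRNAs at their 5' end, 2 of its subunit genes lay in opposite directions. Trmt10c averaged 6.32 ± 0.310 FPKM in siNC against 6.90 ± 0.250 FPKM in siCXCR4, and Hsd17b10 averaged 12.0 ± 0.487 against 11.1 ± 0.112 FPKM, both without overlap (adjusted p of 0.604 and 0.553 by limma). Mrm1, which methylates the 16S rRNA, was at 4.73 ± 0.143 and 5.21 ± 0.106 FPKM, higher without overlap (adjusted p 0.569 by limma). The tRNA methyltransferase gene Trmt5 was at 4.33 ± 0.0836 and 3.79 ± 0.340 FPKM, lower without overlap, and Ptcd1, which binds mitochondrial RNA, was at 6.39 ± 0.393 and 7.21 ± 0.511 FPKM with overlapping groups. Lrpprc, which stabilizes mitochondrial mRNAs, was at 5.13 and 4.87 FPKM in siNC and at 4.84, 4.91 and 4.92 FPKM in siCXCR4, with overlapping groups (log2 fold change -0.03, adjusted p 0.902 by limma).

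Of the 12 translation factors, all were tested, with 8 above 0 and 4 below. Oxa1l, which inserts newly made proteins into the inner membrane, averaged 11.4 ± 0.140 FPKM in siNC against 12.3 ± 0.557 FPKM in siCXCR4, higher without overlap, and the ribosome recycling factor Mrrf was at 1.82 ± 0.131 and 1.56 ± 0.216 FPKM, lower without overlap (adjusted p of 0.626 and 0.665 by limma). The elongation factors Gfm1 and Tufm overlapped between groups, at 9.79 ± 0.778 and 10.1 ± 0.350 FPKM for Gfm1 and 21.4 ± 1.50 and 21.8 ± 0.311 FPKM for Tufm. So did Mtfmt, which formylates the initiator tRNA, at 2.28 ± 0.199 and 2.17 ± 0.236 FPKM, and the release factor Mtrf1 at 2.78 ± 0.214 and 2.66 ± 0.329 FPKM. Of 12 nuclear regulators of mitochondrial biogenesis, 9 were tested, with 7 above 0 and 2 below. The transcription factor Yy1 had the lowest p of this list and was at 11.9 and 10.9 FPKM in siNC and at 12.6, 11.8 and 12.8 FPKM in siCXCR4, with overlapping groups (log2 fold change 0.11, SE 0.0631, adjusted p 0.615 by limma). Sirt1, a deacetylase, was at 3.17 and 3.10 FPKM in siNC and at 3.24, 3.23 and 4.01 FPKM in siCXCR4, higher without overlap (adjusted p 0.702 by limma). Ppargc1a, a coactivator of mitochondrial biogenesis genes that is named after its values were seen, had 0 reads in all 5 libraries, while its relative Ppargc1b was at 1.20 ± 0.104 and 1.05 ± 0.0816 FPKM with overlapping groups. Nfe2l2, Gabpa and Gabpb1 also overlapped, with log2 fold changes of 0.065, 0.057 and 0.043. The sum of FPKM over the 12 regulators was 141 to 148 in siNC and 144 to 155 in siCXCR4.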

How the data were processed

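The authors deposited 1 table per sample. In 5 of them the deposited values were taken as FPKM, because multiplying by gene length turned 100% of values into whole multiples of 1 read (tolerance 0.05). The file headers name no unit. The last, siNC replicate 3, holds raw deposited counts that repeat replicate 2. The test had been planned on normalized values of 5 distinct libraries. No source used here gives the aligner, the counting tool, its strand setting or its handling of reads with several matches. The submitters' processing notes name the build mm9, while all 37 mitochondrial genes and 53499 of 54409 shared genes had the positions of the GRCm38 annotation (GENCODE), so GRCm38 is used.

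The test was limma 3.58.1 in R 4.3.3 (trend, robust, two-sided) on log2(FPKM + 1) of the 9943 genes averaging 1 FPKM or more, keeping for each of 102 repeated symbols the entry with the highest mean. P-values were adjusted over all genes (Benjamini-Hochberg, threshold 0.05). On whole reads, edgeR 4.0.16 (quasi-likelihood, TMM) and DESeq2 1.42.0 were alternatives. Ratios within the genome used exact permutation tests over the 10 splits (scipy 1.17.1). The limma and edgeR tests were tested on simulated data. Copies were aligned with blastn 2.17.0. Read intervals and floors (3 reads) cover counting error only, since no source used here names molecular identifiers that would mark PCR copies.

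All 15 mRNA and rRNA genes and tRNA genes with a mean of at least 50 reads were named with every library, other tRNA genes by range, and of each nuclear list up to 6 genes of lowest p plus Tfam, Polrmt and Lrpprc. mt-Tt, mt-Th, mt-Tc, mt-Tl2 and Malat1 were singled out after their values were seen. The genes and lists were chosen with earlier results of these data known. Alternatives were other scalings, filters, pseudocounts, a replicate block, the copied table as replicate 3 and each library left out.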

Additional observations from a re-analysis of the deposited data

How the results depend on the processing

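Over 20 alternatives the number of mitochondrial genes called was 0 except with DESeq2 (1, mt-Rnr2) and with edgeR without siCXCR4 replicate 2 (2, mt-Rnr2 and mt-Nd5), so leaving out 1 library gave 0 to 2. Over all genes, 0 were called by limma, 17 by edgeR, 34 by DESeq2, 2 by limma without siCXCR4 replicate 2 and 6 with the copied table as a replicate. With each library left out, edgeR called 0 to 312. Whether replicate numbers pair the libraries could not be decided. Correlations of deviations were -0.040 and -0.11 for the 2 shared numbers. With 2 siNC libraries their deviations mirror each other, so these values cannot show or exclude pairing. A replicate block gave 0 calls by limma and 81 by edgeR, 0 of them mitochondrial.

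The rRNA to mRNA difference kept its direction in all 11 alternatives (0.24 to 0.40), as did mt-Rnr2 to mt-Rnr1 in 7 (0.11 to 0.18), mitochondrial against other reads in 9 (-0.17 to -0.068) and tRNA to mRNA in 9 (0.015 to 0.12). Some differences near 0 changed sign. With the replicate block these were mt-Co2 (0.0270, by edgeR 0.0105), mt-Co3 (0.0125), mt-Tp (0.00677), mt-Nd6 to plus-strand mRNAs (0.00563) and complex IV to complex I (0.0121). With 1 library left out, values ran from -0.123 to 0.0270 for mt-Co2, -0.236 to 0.114 for mt-Co3, -0.129 to 0.0871 for mt-Tp, -0.0727 to 0.0427 for mt-Nd6 to plus-strand mRNAs, -0.0448 to 0.0108 for late to early mRNAs, -0.107 to 0.0372 for complex IV to complex I and -0.0906 to 0.0304 for minus to plus strand. By edgeR with 1 library left out, mt-Co2 reached 0.0106, mt-Co3 0.124 and mt-Tp 0.0736. Complex IV to complex I was 0.0126 from summed reads and 0.00763 with mt-Co1 against mt-Nd1, mt-Nd2, mt-Nd4 and mt-Nd5, and minus to plus strand was 0.184 from tRNA genes only. The cause was not tested. Low counts limit the precision of the tRNA genes other than mt-Tp and of the 6 mRNA genes inside the copied stretch (at most 187 reads per library).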
